A study of Rattus norvegicus with 10 samples.

Results

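Iron and copper handling genes were taken as a set of 6 listed genes, namely FTH1, FTL1, TF, TFRC, SLC40A1 and CP, each entering if its symbol appeared beside an Ensembl identifier in the study's table of expressed genes. Of these, 3 (FTH1, FTL1 and TF) could be linked to 1 of the 32883 identifiers quantified in every rat. TFRC, SLC40A1 and CP had no symbol in the shortened copy of that table at hand and were not analysed here. That copy names 1997 identifiers, all with a mean TPM of at least 36.0, so genes of low level could not be reached by symbol. To obtain a wider view, the same samples were read over longer lists of iron genes and copper genes.

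Choroid plexus was taken from 10 female Wistar rats aged 27 weeks, 1 animal per library with no pooling. From 6 weeks of age, 5 rats received a nutrient source-matched control diet with 10% of energy from fat and 5 rats a high fat diet (HFD) with 60% of energy from fat, for 21 weeks. The study chose its experimental animals by weight, with control rats below a threshold and HFD-fed rats above a higher one. Diet and this choice cannot be told apart here. The study asked whether the HFD altered transcription in this tissue. All values are TPM, which express each gene per length and as a share of all transcripts in a rat.

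The choroid plexus is a folded epithelium in the brain ventricles that secretes cerebrospinal fluid and lies between blood and brain fluid, so metals pass across it. In blood and cerebrospinal fluid iron is carried by transferrin (TF) and enters cells through the transferrin receptor (TFRC). Inside cells it is stored in ferritin, a shell of heavy (FTH1) and light (FTL1) chains, and it leaves through ferroportin (SLC40A1), after which the copper enzyme ceruloplasmin (CP) oxidizes it. Copper enters through CTR1 (SLC31A1), is handed on by small chaperones, and is buffered by metallothioneins.

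The libraries carried the marker genes of choroid plexus epithelium, with all 8 of 8 linked, among them transthyretin (TTR) at 32.2% to 39.7% of all TPM. None of the 5 oligodendrocyte markers could be linked. 1 control library, that of control rat 1, differed from the rest, with 1842 genes deviating over 2-fold from the median level elsewhere, where such genes numbered 171 to 235 per rat. Its mean effective transcript length, weighted by abundance and so dependent on shares such as that of TTR, was 789 bases against 874 to 968. TPM were therefore rescaled by the median ratio over 12037 genes, with a factor of 0.747 for control rat 1 and 0.944 to 1.13 for the others. Many values are given with and without this rat. The read depth of each rat is unknown, since TPM keep no depth and the values are rounded to 2 decimals.

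To show the regulatory sequence of the secreted iron carrier and of the metal buffers, the 250 bases before the annotated start are printed from RefSeq, build GRCr8, 5′ to 3′ on the gene's strand. Capitals mark a TATA box (TATAAA) and the core of the metal response element (TGCACNC or TGCGCNC), the short motif to which the zinc-sensing factor MTF1 binds in metallothionein promoters. Both were searched on both strands, and no match of one overlapped the other. All 4 genes lie on the minus strand, Tf at chr8:112695377-112695626, Mt1 at chr19:10832976-10833225, Mt2A at chr19:10838709-10838958 and Mt3 at chr19:10856081-10856330.
Tf: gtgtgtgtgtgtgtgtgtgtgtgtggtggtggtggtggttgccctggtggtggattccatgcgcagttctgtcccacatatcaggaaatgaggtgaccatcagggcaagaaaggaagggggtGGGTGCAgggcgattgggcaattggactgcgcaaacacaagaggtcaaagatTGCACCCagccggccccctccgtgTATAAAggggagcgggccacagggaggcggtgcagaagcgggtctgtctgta
Mt1: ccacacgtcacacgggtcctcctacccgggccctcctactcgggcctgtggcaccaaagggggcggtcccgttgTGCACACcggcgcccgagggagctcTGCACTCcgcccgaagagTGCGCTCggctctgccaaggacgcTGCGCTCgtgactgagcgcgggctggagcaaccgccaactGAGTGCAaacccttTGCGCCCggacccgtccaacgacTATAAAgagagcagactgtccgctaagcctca
Mt2A: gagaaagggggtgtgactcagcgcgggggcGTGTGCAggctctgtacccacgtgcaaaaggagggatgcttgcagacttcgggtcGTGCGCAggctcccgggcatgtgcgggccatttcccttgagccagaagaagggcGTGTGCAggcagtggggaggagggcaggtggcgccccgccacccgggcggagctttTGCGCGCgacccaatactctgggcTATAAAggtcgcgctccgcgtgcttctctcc
Mt3: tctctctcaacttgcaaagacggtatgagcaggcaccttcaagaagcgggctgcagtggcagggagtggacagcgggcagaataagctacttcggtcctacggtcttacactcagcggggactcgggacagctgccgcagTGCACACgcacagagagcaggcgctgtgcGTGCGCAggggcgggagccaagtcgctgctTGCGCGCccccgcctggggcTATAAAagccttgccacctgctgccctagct
The metal response core was found 2 times in Tf, 6 times in Mt1, 4 times in Mt2A and 3 times in Mt3, counting each start position once. Of 33469 rat promoter windows of this length, 20.6% held the core at least once, 1.17% at least 3 times and 0.266% at least 4 times. TATAAA was present once in each of the 4 windows and in 12.9% of all windows. A match is a description of the letters and not a bound site.

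None of the 3 linked members differed between the diets beyond the spread of the rats. In limma, fitted over 12198 genes with Benjamini-Hochberg adjustment, 0 of the 3 passed an adjusted p of 0.05 and 0 of the 3 an unadjusted p of 0.05. In the same fit no gene passed the adjusted threshold (0.0% of genes), whereas 1048 genes had an unadjusted p under 0.05, with 459 (3.76%) on the higher side and 589 (4.83%) on the lower side after HFD. Among the 2015 identifiers with a symbol, 1.59% were higher and 13.3% were lower. Of these symbols, 18 came only from the study's table of changed genes and were thus chosen by the outcome, but none of the iron or copper genes below is among them. Over the 1997 identifiers named by the table of expressed genes, 1.00% were higher and 13.2% lower. The count of 0 is that of limma on rescaled TPM. The study's DESeq2 test on raw counts, which called changed genes, was not run here.

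TF, the secreted iron carrier, was the most abundant member and ranked between 17 and 23 of all genes by TPM in the individual rats. As deposited, its TPM were 2938, 3745, 3665, 3356 and 3144 in control rats 1 to 5. They were 3686, 3317, 3604, 3158 and 3458 in HFD rats 1 to 5. The groups overlapped over nearly their whole range, and TF took 0.294% to 0.375% of all transcripts. After rescaling, mean TF was 3492 ± 343 (SD, n = 5) on the control diet and 3335 ± 372 (SD, n = 5) on the HFD. Its log2 fold change was -0.07 (SE 0.10, 95% CI -0.29 to 0.15, adjusted p = 0.765 in limma), an interval from 0.818-fold to 1.11-fold. The exact two-sided permutation test gave p = 0.492. Without control rat 1 the log2 fold change was -0.02. With TPM as deposited the sign turned, to 0.04 (0.035, adjusted p = 0.862 in limma).

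FTH1, the ferritin heavy chain that oxidizes iron for storage, ranked between 30 and 38 of all genes. As deposited, its TPM were 2109, 2126, 2177, 2230 and 2103 in control rats 1 to 5. They were 2181, 2077, 1918, 2299 and 2022 in HFD rats 1 to 5. On this scale the control rats lay within the range of the HFD-fed rats. Rescaled, control rat 1 reached 2824 against 2063 to 2149 in the other 4 controls and 1793 to 2193 in the HFD-fed rats. The group means were 2244 ± 326 (SD, n = 5) in controls and 2026 ± 147 (SD, n = 5) in HFD-fed rats. The log2 fold change of -0.14 (SE 0.10, 95% CI -0.36 to 0.08) had an adjusted p = 0.600 in limma and p = 0.198 in the exact two-sided permutation test. It was -0.05 (95% CI -0.19 to 0.09) without control rat 1 and -0.04 with TPM as deposited.

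FTL1, the ferritin light chain that helps to form the iron core, was far less abundant by TPM, and here 1 rat set the group mean. As deposited, its TPM were 114.7 in control rat 1 and 49.1, 49.5, 51.4 and 50.1 in control rats 2 to 5. They were 53.3, 47.7, 43.7, 56.0 and 56.3 in HFD rats 1 to 5. Control rat 1 held 2.29 times the mean of the other controls, and FTL1 ranked 691 in that rat and between 1755 and 1962 in the others. After rescaling the gap was 3.16 times, with 153.7 in control rat 1 against 46.3 to 50.9 in the other 9 rats, whose coefficient of variation was 3.00%. With all rats FTL1 had a log2 fold change of -0.31 (SE 0.29, 95% CI -0.95 to 0.33, adjusted p = 0.653 in limma). Without control rat 1 it turned to 0.02 (SE 0.04, 95% CI -0.08 to 0.12), so that over 4 controls and 5 HFD-fed rats the interval was narrow and included 0.

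**Figure D1:**
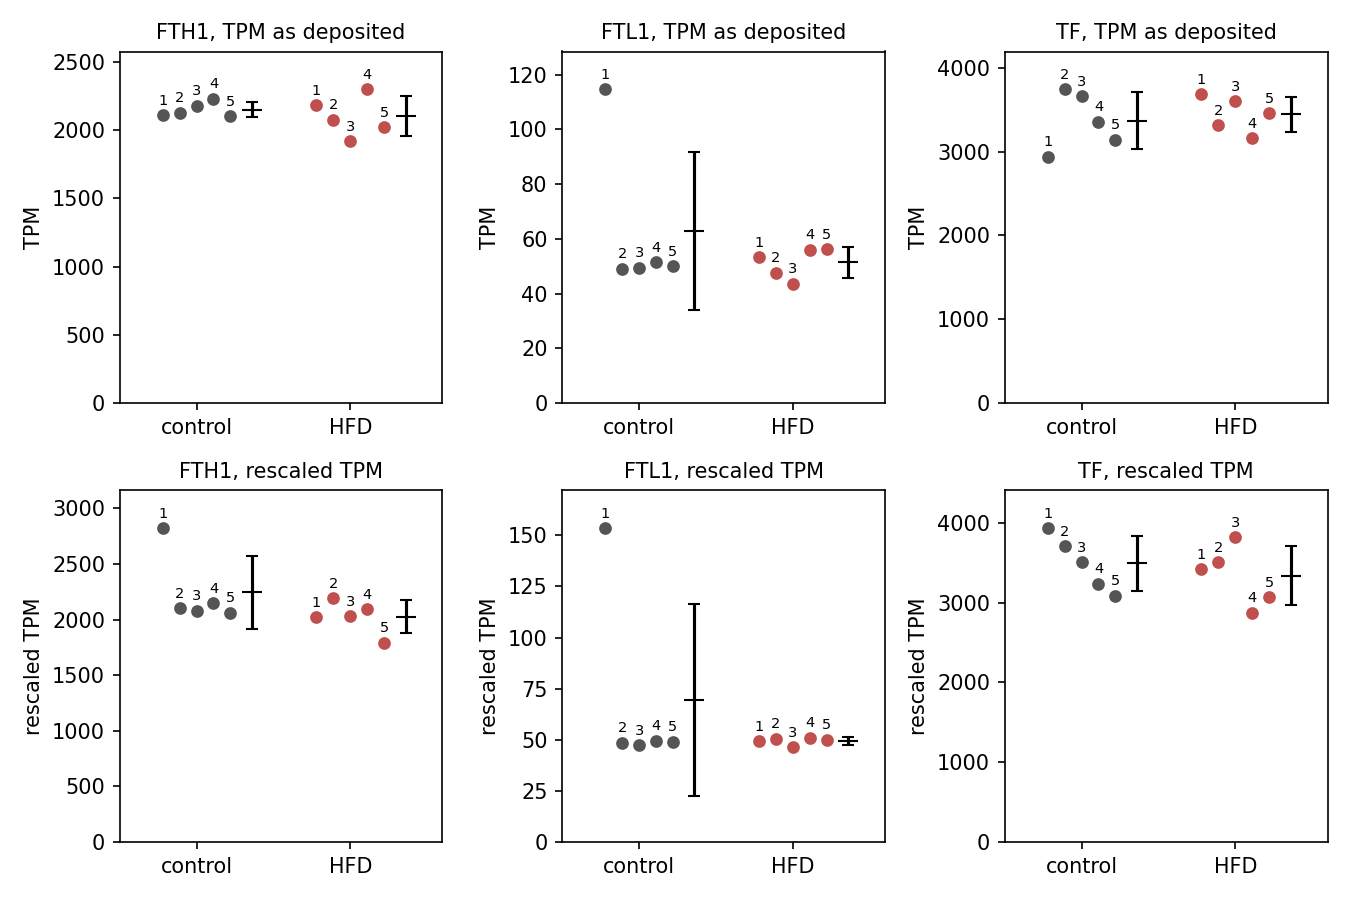
Each point is 1 rat (numbers are replicate labels) on the control diet (grey) or the HFD (red), as deposited TPM (top) and rescaled TPM (bottom), and the bars give the mean and SD of 5 rats. FTL1 of control rat 1 lies far above the other 9 rats on both scales, whereas its FTH1 stands out only after rescaling, at 2824 against 2063 to 2149 in the other controls.

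Both ferritin chains can be compared within a rat, since TPM are per length and their ratio does not depend on the scaling between rats. The ratio of FTH1 to FTL1 was 18.4 in control rat 1 and 43.3, 44.0, 43.4 and 42.0 in control rats 2 to 5. In HFD rats 1 to 5 it was 41.0, 43.5, 43.9, 41.1 and 35.9. Control rat 1 thus had less than any other rat, and HFD rat 5 was the next lowest. The log2 ratio differed by 0.17 between the diets (HFD minus control, exact two-sided permutation test, p = 0.905) and by -0.08 without control rat 1 (exact permutation test, p = 0.206).

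The level of FTL1 relative to FTH1 can depend on how reads were shared among gene copies, which was not tested. RefSeq (GRCr8) names 21 loci as copies of rat Ftl1, of which 6 are listed as protein coding and 15 as pseudogenes, and 6 copies of Fth1, of which 1 is protein coding. It names 0 copies of Tf. None of these copies could be linked to an identifier in the files, so their values were not added to those of FTL1 or FTH1. The reads were aligned to Rnor_6.0, and whether these loci were among the genes quantified there is unknown. RSEM assigns reads that match several copies by estimated shares, and the ratio of the chains in these data is therefore uncertain as a level.

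**Figure D2:**
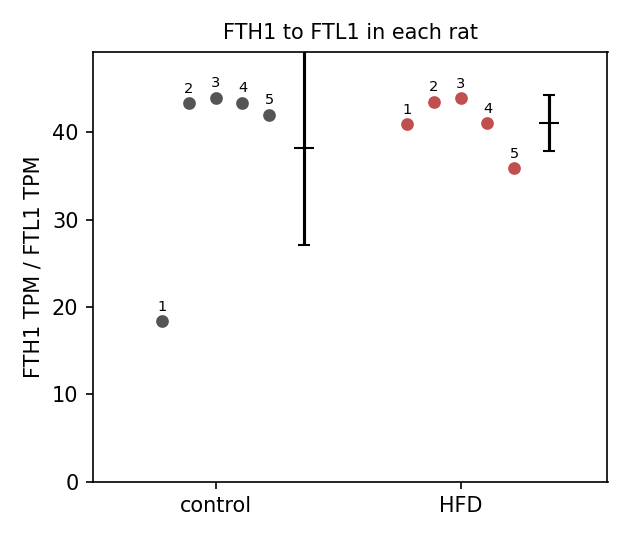
The ratio of FTH1 TPM to FTL1 TPM is plotted for each rat on the control diet (grey) and the HFD (red), with the mean and SD of 5 rats. Control rat 1 lies at 18.4 and the other 9 rats between 35.9 and 44.0.

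Across the rats the members did not vary as 1 group. Log2 values centred within each diet gave a Pearson r of 0.87 between FTH1 and FTL1 over 10 rats, but 0.13 without control rat 1. For FTH1 and TF r was 0.51 and 0.25, respectively, and for FTL1 and TF 0.41 and -0.74. These are descriptions over few rats that share libraries and scaling.

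The genes whose pattern was most like each member were sought among 1990 genes with a symbol. For FTH1 these were RPLP1, a protein of the ribosomal stalk (r = 0.981 over 10 rats, 0.924 without control rat 1), LOC100911847 (0.977 and 0.909) and LOC100359951 (0.976 and 0.910). For TF they were SLC29A4, a monoamine transporter (0.922 and 0.900), SNN (0.906 and 0.882), and CYC1, the cytochrome c1 of respiratory complex III (0.889 and 0.857). The likeness of FTL1 rested on control rat 1: CTDNEP1 had r = 0.997 over 10 rats and 0.720 without it, AGPAT1, an enzyme of phospholipid synthesis, 0.991 and 0.051, and C1QTNF5 0.991 and 0.493.

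Blood and stromal cells also hold ferritin, and their markers differed between rats. The 4 of 5 linked blood markers, the globins HBA-A1, HBA-A2, HBB and HBB-BS, summed to 3658 to 7803 rescaled TPM in controls and 3102 to 6396 in HFD-fed rats. The highest rescaled sum, 7803, was in control rat 1, but HBB and HBB-BS were higher in control rat 2. As deposited, HBA-A1, HBB and HBB-BS of control rat 1 (3391, 914 and 259) lay below control rat 2 (3708, 1626 and 417). HBA-A2 did not (1262 and 1237). The macrophage markers CD74 and LYZ2 (2 of 8 linked) summed to 433 in control rat 1, below the 498 to 625 of the other controls and the 458 to 654 of the HFD-fed rats. The endothelial, mural and stromal markers linked were PLVAP (1 of 3), RGS5 (1 of 3) and DCN (1 of 4). PLVAP was 97.5 in control rat 1, 53.8 to 62.4 in the other controls and 51.1 to 67.2 in HFD-fed rats. RGS5 was 42.8, 106 to 110 and 101 to 129, respectively, and DCN 116, 140 to 231 and 160 to 227. As deposited, PLVAP was 72.8 in control rat 1 and 75.8 in HFD rat 5, whereas RGS5 and DCN stayed lowest in control rat 1. The part of these cells in the ferritin values was not tested. In whole tissue, fewer cells of a type and less RNA per cell cannot be told apart. Of the 8 epithelial markers, 2 had an unadjusted p under 0.05 in limma, KL and HTR2C. Both were higher after HFD, beside 3.76% of all genes tested and 1.59% of those with a symbol. KL was 273 in control rat 1, 379 to 414 in the other controls and 419 to 463 in HFD-fed rats. HTR2C was 372 to 425 in controls and 420 to 524 in HFD-fed rats. Neither passed the adjusted p (0.565 and 0.542 in limma), and TTR, FOLR1 and AQP1 had log2 fold changes below 0.

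The wider iron list held 47 genes, of which 11 were linked and tested. Of these 11, 0 had an unadjusted p under 0.05 in either direction, beside the 3.76% higher and 4.83% lower of all genes tested. Their median log2 fold change was -0.06, with 6 below and 5 above 0, against 0.01 over all genes tested and -0.08 over those with a symbol. Without control rat 1 it was -0.01, against 0.00 (0.002) and -0.06. On TPM as deposited it was 0.04, with 3 below and 8 above 0. The median was 0.12 (0.115) over all genes tested and 0.02 (0.019) over those with a symbol. After TF and FTH1 the most abundant was SLC22A17, the receptor for lipocalin-bound iron. It was 1409 ± 306 rescaled TPM (SD, n = 5) in controls and 1232 ± 91.4 (SD, n = 5) in HFD-fed rats, with 1947 in control rat 1 alone and 1233 to 1374 in the other 4. Its log2 fold change of -0.17 (SE 0.13) was -0.05 without that rat.

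PCBP2, a chaperone that delivers iron to ferritin, was 96.9 ± 4.95 rescaled TPM (SD, n = 5) in controls and 98.0 ± 5.54 (SD, n = 5) in HFD-fed rats (log2 fold change 0.02, 95% CI -0.12 to 0.15). HFE, a membrane protein that binds the transferrin receptor and takes part in iron sensing, had the smallest p of the list. It was 66.7, 84.5, 76.5, 78.4 and 77.5 rescaled TPM in control rats 1 to 5 and 86.8, 83.2, 80.5, 88.1 and 81.3 in HFD rats 1 to 5. The groups overlapped through control rat 2. The log2 fold change was 0.13 (SE 0.07), with p = 0.0807 and adjusted p = 0.572 in limma and an unadjusted p = 0.0476 in the exact permutation test. Without control rat 1 it was 0.08 (exact permutation test, p = 0.0952). The remaining linked genes, among them the iron sensor FBXL5 and the haem transporter SLC48A1, had log2 fold changes from -0.09 (SCARA5) to 0.14 (NCOA4). NCOA4, the ferritin cargo receptor, was 37.3 rescaled TPM in control rat 1 against 45.7 to 53.2 in the other controls, and its value was 0.06 without that rat.

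Of the 25 genes of the copper list 13 were linked and tested. Their median log2 fold change was -0.22, with 11 below and 2 above 0, against 0.01 over all genes tested and -0.08 over those with a symbol. Without control rat 1 it was -0.13, against 0.00 (0.002) and -0.06. In limma 0 had an unadjusted p under 0.05 in the higher direction and 5 in the lower, beside 4.83% of all genes tested and 13.3% of those with a symbol. No adjusted p passed, the values running from 0.543 to 0.849. The 5 genes were SOD1, MT3, COMMD1, CUTA and COX17. In COMMD1 and CUTA, 2 of the 13, every HFD-fed rat lay below every control rat after rescaling, as in 2.02% of all genes tested and 6.80% of those with a symbol. On TPM as deposited the groups overlapped in both genes, with COMMD1 at 41.8 to 52.0 in controls and 44.7 to 52.2 in HFD-fed rats, and CUTA at 119 to 138 and 98.0 to 125.

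The count was sensitive to single rats and to scaling. It stayed at 5 without control rat 1, when 6.22% of all genes tested and 17.0% of those with a symbol were lower, but was 1 without HFD rat 1, 4 or 5, and 3 without control rat 2 or HFD rat 3. With TPM as deposited 3 remained, SOD1, MT3 and COX17, beside 3.85% of all genes tested higher and 1.26% lower. The linked copper genes all come from the genes with a symbol, and the share of those was not computed on this scale. The median over all genes tested was 0.12 (0.115) as deposited and 0.01 (0.013) after rescaling. Over genes with a symbol it was 0.02 (0.019) and -0.08 (-0.084).

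**Figure D3:**
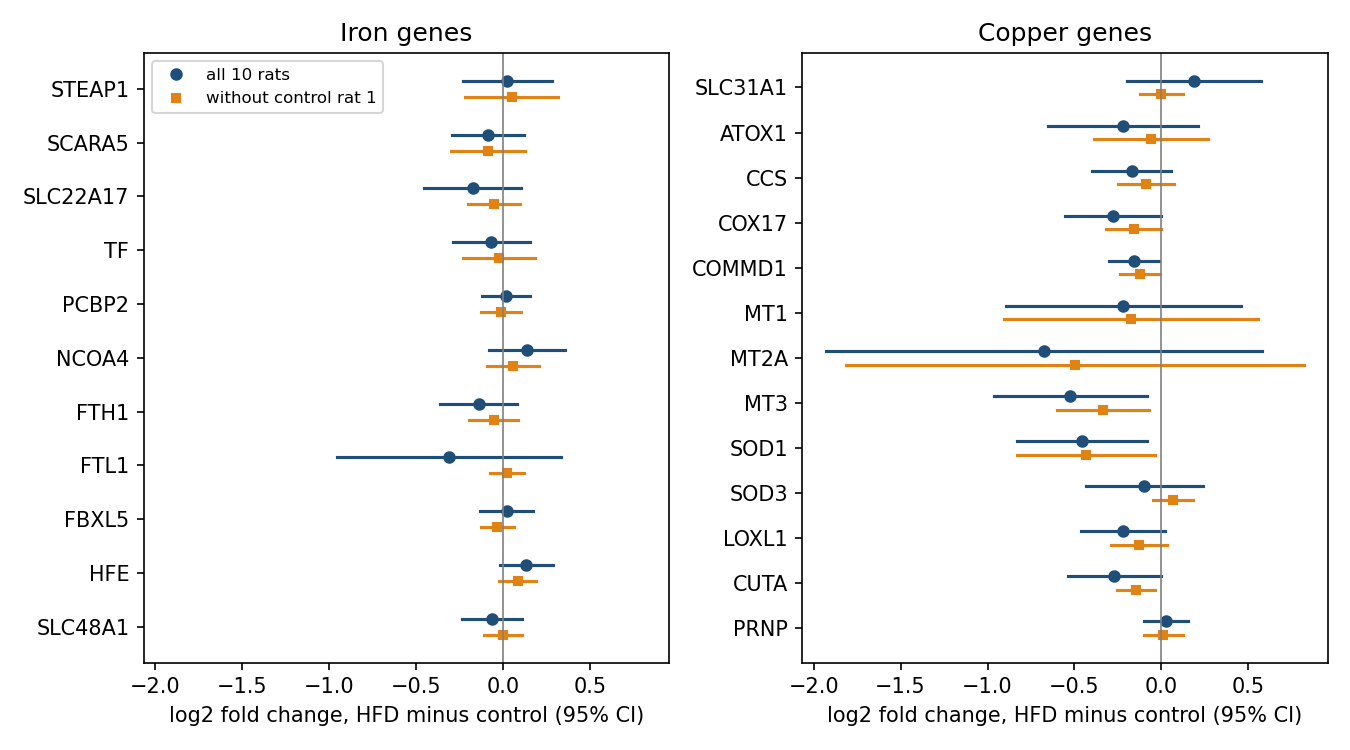
Log2 fold change (HFD minus control) and 95% CI from limma for the 11 linked iron genes and the 13 linked copper genes, with all 10 rats (blue circles) and without control rat 1 (orange squares). FTL1 moves from -0.31 to 0.02 when that rat is left out, whereas SOD1 stays near -0.46 and -0.43.

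SOD1, the cytosolic copper-zinc superoxide dismutase, was the most abundant copper gene after rescaling. It was 1345, 1099, 1276, 1342 and 1286 rescaled TPM in control rats 1 to 5 and 719, 1293, 1209, 782 and 765 in HFD rats 1 to 5. HFD rats 1, 4 and 5 lay below every control rat, whereas HFD rats 2 and 3 lay within the control range. The log2 fold change of -0.46 (SE 0.17, 95% CI -0.83 to -0.08) had p = 0.0215 and adjusted p = 0.543 in limma, and p = 0.0714 in the exact permutation test. HFD rats 2 and 3 also had the higher TTR shares of their group, 36.0% and 38.2% against 32.2% to 33.1%. Their mean effective lengths were the shorter ones, 883 and 874 bases against 934 to 968. Control rats 2 to 5 had TTR shares of 32.2% to 34.2% and lengths of 905 to 918 bases, with SOD1 at 1099 to 1342. Control rat 1 had a TTR share of 39.7% and a length of 789 bases, with SOD1 at 1345. The part of these measures in SOD1 was not tested.

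MT3, the metallothionein best known from brain, was 677, 364, 328, 319 and 407 rescaled TPM in control rats 1 to 5. It was 363, 268, 279, 231 and 272 in HFD rats 1 to 5. All HFD-fed rats but the first lay below every control rat. HFD minus control gave -0.52 on the log2 scale (SE 0.20, adjusted p = 0.553 in limma) with all rats, with p = 0.0238 in the exact permutation test. Without control rat 1 it was -0.34 (-0.335, exact permutation test, p = 0.0476).

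COMMD1, a protein of copper export traffic, was 51.1 ± 2.94 rescaled TPM (SD, n = 5) in controls and 45.8 ± 2.69 (SD, n = 5) in HFD-fed rats. Its log2 fold change of -0.16 (SE 0.07, adjusted p = 0.569 in limma) had p = 0.00794 in the exact permutation test, the smallest that 5 against 5 rats can give. It was -0.12 without control rat 1 and -0.05 on TPM as deposited (exact permutation test, p = 0.0159 and p = 0.476). CUTA, a protein linked to copper tolerance by its bacterial relatives, was 133 ± 29.3 (SD, n = 5) and 109 ± 4.79 (SD, n = 5), with control rat 1 at 185 and the other controls at 114 to 127. With all rats its log2 fold change was -0.27 (SE 0.12, adjusted p = 0.572 in limma, exact permutation p = 0.00794). It was -0.15 without control rat 1 (exact permutation p = 0.0159, the smallest for 4 against 5 rats) and -0.17 on TPM as deposited (exact permutation p = 0.0397).

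COX17, the chaperone that brings copper to cytochrome c oxidase, was 512 rescaled TPM in control rat 1 and 318 to 352 in the other controls. It was 272 to 344 in HFD-fed rats, of which 3 lay below every control rat. It differed by -0.28 on the log2 scale (SE 0.13, adjusted p = 0.572 in limma, exact permutation p = 0.0397), and by -0.16 without control rat 1 (exact permutation p = 0.0794). The other chaperones ATOX1 and CCS had log2 fold changes of -0.22 (SE 0.20) and -0.17 (SE 0.10), each with an interval that included 0. Without control rat 1 these were -0.06 (SE 0.15) and -0.09 (SE 0.07).

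The copper importer SLC31A1 and the copper-binding prion protein PRNP were the 2 genes above 0. SLC31A1 was 208 rescaled TPM in control rat 1, 376 to 410 in the other controls and 381 to 428 in HFD-fed rats, so its log2 fold change of 0.19 (SE 0.17) was 0.00 (-0.001) without that rat. PRNP was 436 ± 21.8 (SD, n = 5) in controls and 443 ± 17.5 (SD, n = 5) in HFD-fed rats (log2 fold change 0.03, 95% CI -0.10 to 0.15). The secreted SOD3, at 317 ± 94.6 and 288 ± 9.64 (SD, n = 5 each), and LOXL1, at 49.7 ± 8.07 and 42.3 ± 3.83 (SD, n = 5 each), had adjusted p = 0.779 and adjusted p = 0.572 in limma. SOD3 was 484 in control rat 1 and 256 to 299 in the other controls, and its log2 fold change turned from -0.10 to 0.07 (0.065) without that rat, and to 0.005 on TPM as deposited. That of LOXL1 went from -0.22 to -0.13 without control rat 1.

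MT1 and MT2A, the widely expressed metallothioneins, varied more between rats than between diets. They are described after their values were seen, outside the rule for named genes. The core motif printed above was found in the windows of both, and also in those of MT3 and TF. MT1 was 183, 170, 96.9, 226 and 163 rescaled TPM in control rats 1 to 5 and 165, 155, 200.5, 63.9 and 158 in HFD rats 1 to 5. MT2A was 175, 117, 41.4, 239 and 69.2 in control rats 1 to 5 and 114, 94.4, 109, 19.8 and 57.6 in HFD rats 1 to 5. Both were highest in control rat 4 and lowest in HFD rat 4, with a second low rat, control rat 3. The centred log2 values of the pair had a Pearson r of 0.93 over 10 rats and 0.93 without control rat 1, against 0.35 and 0.46 for MT1 with MT3. RefSeq names 3 pseudogenes of Mt1, none linked here, and related metallothioneins can share reads. The log2 fold changes were -0.22 (SE 0.31, 95% CI -0.89 to 0.46) for MT1 and -0.68 (SE 0.57, 95% CI -1.93 to 0.58) for MT2A, both with intervals that included 0, the wider one for MT2A. Without control rat 1 the values were -0.175 for MT1 and -0.499 for MT2A.

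**Figure D4:**
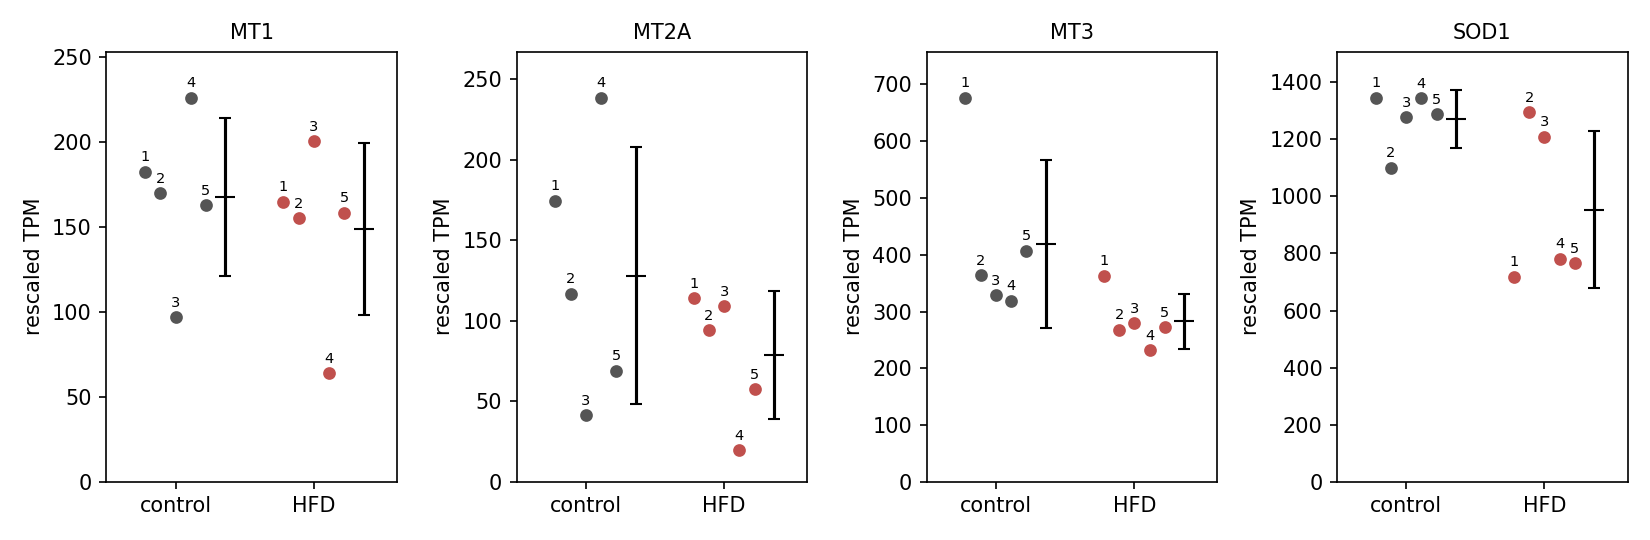
Rescaled TPM of MT1, MT2A, MT3 and SOD1 in each rat (numbers are replicate labels) on the control diet (grey) or the HFD (red), with the mean and SD of 5 rats. MT1 and MT2A are highest in control rat 4 and lowest in HFD rat 4, and SOD1 in HFD-fed rats splits into 3 rats at 719 to 782 and 2 rats at 1209 and 1293.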

How the data were processed

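RNA of choroid plexus from 10 rats was sequenced by the study, aligned to Rnor_6.0 with STAR (2.7.2a in the submitters' processing notes, another version in the study's methods) and quantified with RSEM (1.3.3 in the notes). The authors deposited TPM and FPKM per Ensembl identifier, rounded to 2 decimals, and their DESeq2 test on raw counts was not run here. The deposited FPKM are proportional to TPM within a rat and served only for the mean effective length.

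Symbols came from the study's tables, read for names only; lists skipped 7 symbols that name several identifiers. TPM were divided by the median ratio to the geometric mean of all rats. Genes reaching a mean rescaled TPM of 1 were tested with limma 3.58.1 (R 4.3.3) on log2(TPM + 0.1), a scale that understates changes of low genes, with a mean-variance trend and diet as the only term. Single genes and the ferritin ratio were compared by exact two-sided permutation over 252 assignments, with a smallest p of 0.00794. Other steps used python 3.11.15, scipy 1.17.1 and pandas 2.3.3. The fit was also run on simulated data, with each gene drawn independently. Such data hold no deviation shared by many genes of a rat, as in control rat 1, so nothing is concluded from them here. The members, gene lists and tests were chosen with earlier results of these data known.

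Genes named in the text were the members, list genes with an unadjusted p under 0.05, the 5 most abundant genes of each list, and the 3 genes most like each member by Pearson r above a mean rescaled TPM of 10. Other list genes are described beside these, MT1 and MT2A after their values were seen, and the cell markers came from separate lists. Alternatives changed the scaling, pseudocount, filter, variance model, replicate block or rats.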

Additional observations from a re-analysis of the deposited data

Results flagged for a closer look

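Single rats that lay far from the other 4 of their group, by Dixon's ratio of the gap to the group's range with a limit of 0.71, occurred in 15 of 54 groups of values examined. Chance alone flags about 1 in 20 independent groups, but these are not independent, since the scaling factor of a rat enters all of its rescaled values. Control rat 1 was the rat in 11 of the 15. It was the highest control for FTH1 (ratio 0.871), FTL1 (0.961), SLC22A17 (0.763), CCS (0.711), COX17 (0.785), SOD3 (0.757) and CUTA (0.784). It was the lowest control for SLC31A1 (0.871), the log2 ratio of FTH1 to FTL1 (0.948), the scaling factor (0.884) and the mean effective length (0.900).

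The other 4 lay elsewhere. SCARA5, a receptor for ferritin, was lowest in HFD rat 2 at 55.6 rescaled TPM against 73.4 to 76.7 (ratio 0.865). PCBP2 was lowest in HFD rat 4 at 88.4 against 98.7 to 102.2 (0.762). MT1 was lowest in HFD rat 4 at 63.9 against 155 to 200.5 (0.777). SOD1 was lowest among controls in control rat 2 at 1099 against 1276 to 1345 (0.739).

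With the scale changed to TPM as deposited, a check chosen after seeing the data, 10 of 48 groups of gene values passed the limit, 8 of them with control rat 1, where rescaled TPM gave 12 and 8. For control rat 1 the genes past the limit on both scales were FTL1 and SLC31A1. On TPM as deposited FTH1 and CCS of that rat were 0.977 and 0.968 of the mean of the other controls.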

How the results depend on the processing

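FTH1 kept its direction under all 21 alternatives, from -0.17 to -0.04, and no member had an unadjusted p under 0.05 in any. On TPM as deposited TF turned to 0.035, and array weights gave 0.009. FTL1 turned to 0.022 without control rat 1, and its log2 fold change ran from -0.40 to 0.02 over the rats left out in turn, as did TF from -0.12 to -0.02 and FTH1 from -0.17 to -0.05. The log2 ratio of FTH1 to FTL1 ran from -0.076 to 0.239, the former without control rat 1. The sum of ferritin copies was not run, since no copy could be linked to an identifier. PCBP2 turned to -0.023 with array weights and ran from -0.013 (without control rat 1) to 0.052 with a rat left out, also turning without HFD rat 2, and SLC31A1 turned to -0.007 with array weights and ran from -0.001 (without control rat 1) to 0.244.

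Genes with an unadjusted p under 0.05 numbered 624 with TPM as deposited, 619 at a minimum mean TPM of 10, 1874 with array weights, and 793 to 1434 with a rat left out. Genes passing the adjusted p numbered 1 with no filter on low values and 3 with array weights, and 0 with any rat left out. Copper genes with an unadjusted p under 0.05 numbered 3 with TPM as deposited, 2 with upper-quartile rescaling, 2 with no mean-variance trend, and 1 to 5 with a rat left out. Iron genes numbered 1 with upper-quartile rescaling and 0 to 1 with a rat left out. The cause was not tested.

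The rats of both diets share the numbers 1 to 5, and deviations of same-numbered rats correlated at 0.116, -0.038, 0.011, 0.060 and 0.106, which gives no ground to pair them. Only 1 of the 5 pairs was matched best in both directions. With the number as a replicate block the adjusted count was 0, the unadjusted count 1141, members 0, iron genes 0 and copper genes 4. The ferritin log2 ratio was 0.17 (p = 0.875, exact permutation within pairs).

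With 5 rats per diet an exact test could not go below 0.00794, and the depth is unknown.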
